A study of Mus musculus with 13 samples.

Results

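Cdkn2a/Braf melanoma was compared with Cdkn2a/Braf melanocytes taken at day 19, on 4 of the 13 arrays of a mouse melanocyte series. The 4 arrays were chosen by their labels alone, 2 for each group, and every difference below is melanoma minus day 19. The day 19 melanocytes were sorted by flow cytometry and are labelled as not yet growth-arrested, whereas the melanomas were uncultured tissue. Both groups carry the genotype that the labels write Cdkn2a/Braf, and the series title names the oncogenic allele BrafV600E. The series also holds sorted Cdkn2a/Braf melanocytes from day 50, labelled as growth-arrested (2 arrays), sorted day 19 cells with Cdkn2a altered and wild-type Braf (2 arrays), Cdkn2a/Braf/Lkb1 melanoma tissue (2 arrays) and pooled tissue of Lkb1/Braf melanocytic proliferations (3 arrays). The Cre driver, the exact Cdkn2a allele, the age of the tumours and what the days count from are not given in the sources used here.

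Melanocytes are the pigment cells of skin and hair and derive from the neural crest. The transcription factor MITF, together with SOX10 and PAX3, drives the genes that build melanosomes and melanin, and signals through KIT, MC1R and the endothelin receptor EDNRB keep these cells alive, dividing and pigmented. Melanoma cells can hold this programme at a low level while carrying other receptor kinases, such as AXL and EGFR, a state known as dedifferentiated. Oncogenic BRAF drives the MEK and ERK kinases, and CDKN2A encodes proteins that restrain the cell cycle.

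Levels are log2(intensity + 1) from the deposited intensities, and differences are on the same log2 scale with their standard error (SE). Each gene was tested with limma, with p-values adjusted over all 19937 genes by the Benjamini-Hochberg method, and a gene was called where the adjusted p was under 0.05. Of all genes tested, 1430 (7.17%) were called higher in melanoma and 1088 (5.46%) lower, together 12.6%, and the median difference over all genes was -0.04. Centring each array on its median moved that median to -0.14 and the share of calls that were higher from 56.8% to 44.0%, so small shifts of a list are read against these values. The counts fell to 825 higher and 552 lower without day 19 array 1, and to 933 and 613 without day 19 array 2. They fell to 1166 and 614 without melanoma array 1, and to 1006 and 668 without melanoma array 2. Over genes, the SD of the difference between replicates was 0.404 for the melanomas and 0.292 for the day 19 cells. Xist, the RNA of the inactive X chromosome, was at 10.12 on day 19 array 1 and at 4.82, 4.76 and 4.44 on day 19 array 2 and melanoma arrays 1 and 2, while the Y-linked Uty was at 3.63 on day 19 array 1 and between 6.78 and 7.35 on the other arrays. The day 19 replicates thus differ in sex, and sex is not balanced between the groups. Sorted cells were compared with whole tissue, so that material and melanoma cannot be told apart, and in bulk RNA fewer cells of a type cannot be told apart from less RNA per cell. Braf was at 8.78 and 8.85 in the day 19 cells and 8.30 and 8.44 in the melanomas, a difference of -0.44 (SE 0.13, limma adjusted p = 0.0448) whose call was lost without any of the 4 arrays (without melanoma array 1 it was -0.37, limma adjusted p = 0.223). The sources used here do not say where the Braf and Cdkn2a probes lie relative to the altered alleles, so neither level checks the genotype.

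**Figure D1:**
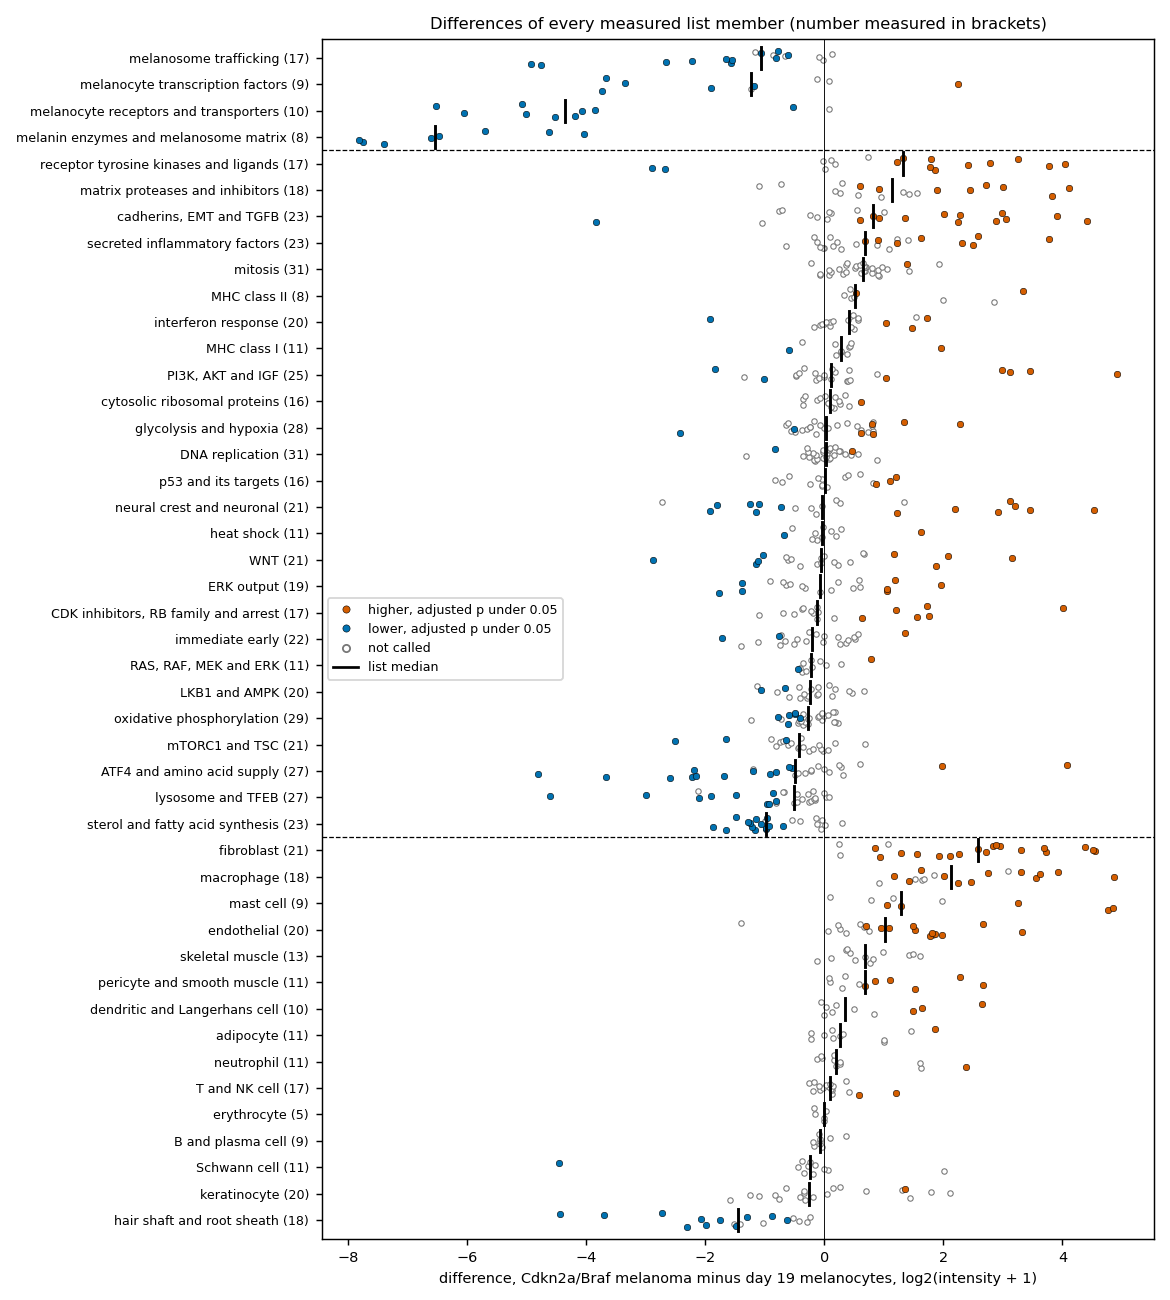
Difference of each measured gene of the 45 gene lists between the melanomas and the day 19 melanocytes, 1 point per gene, on the log2(intensity + 1) scale (x axis), with lists in rows. The dashed lines part the melanocyte lineage lists, the pathway lists and the marker lists of other cell types. Filled points passed the adjusted p of 0.05 and bars are list medians, which run from -6.54 for the melanin list to 2.58 for the fibroblast list.

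Of the 45 lists, the melanin enzymes and melanosome matrix proteins had the median difference farthest from 0, and all 8 measured members were lower in melanoma. That median was -6.54, beside -0.04 over all genes, and all 8 calls held without any 1 of the 4 arrays. Tyr, tyrosinase, which starts melanin synthesis, was at 11.92 and 11.66 in the day 19 cells and at 4.45 and 4.34 in the melanomas. That is a difference of -7.39 (SE 0.59, limma adjusted p = 2.83e-05). No fold is given, since genes under a level of 6 are dim here and a difference against a dim level understates the ratio. Tyrp1, a melanosomal oxidase of the same family, was at 13.21 and 13.15 at day 19 and at 5.08 and 5.77 in melanoma (-7.75, SE 0.20, limma adjusted p = 4.58e-08). Both melanomas thus lay far below both sorted samples for these enzymes. Separation of the arrays by itself is common: both melanoma arrays lay below both day 19 arrays for 32% of all genes and above them for 24.5%. Dct, dopachrome tautomerase, was at 13.33 and 13.25 against 5.0 and 5.95, the largest measured decrease outside the other-cell marker lists, at -7.81 (SE 0.27). Pmel, whose protein forms the fibrils on which melanin is laid down, was at 12.66 and 12.45 against 5.73 and 6.17 (-6.61, SE 0.22). Mlana, a melanosomal membrane protein, was at 13.24 and 13.19 against 6.49 and 6.98 (-6.48, SE 0.19). The other members had smaller decreases: the exchanger Slc24a5 differed by -5.71, the receptor Gpr143 by -4.64 and the glycoprotein Gpnmb by -4.05. The defining pigment markers of the melanocyte lineage were therefore at low levels in the tissue labelled melanoma, where Tyr lay about as low as in the Cdkn2a/Braf/Lkb1 melanomas (4.16 ± 0.24, SD, n = 2).

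The promoters of Tyr, Tyrp1 and Dct are shown because these 3 genes carry the largest decreases among the melanin enzymes and MITF is known to bind E-box sequences ahead of them. Each is the 250 bases before the RefSeq gene start on the mouse build GRCm38.p6, read 5′ to 3′ on the strand of the gene, and capitals mark CATGTG or its reverse complement CACATG. Tyr lies on the minus strand at chr7:87493513-87493762, Tyrp1 on the plus strand at chr4:80833963-80834212 and Dct on the minus strand at chr14:118052247-118052496.
Tyr: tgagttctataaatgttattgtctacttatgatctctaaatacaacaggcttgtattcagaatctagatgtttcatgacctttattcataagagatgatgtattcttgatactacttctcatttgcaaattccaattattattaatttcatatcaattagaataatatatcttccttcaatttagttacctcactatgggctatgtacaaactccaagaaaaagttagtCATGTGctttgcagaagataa
Tyrp1: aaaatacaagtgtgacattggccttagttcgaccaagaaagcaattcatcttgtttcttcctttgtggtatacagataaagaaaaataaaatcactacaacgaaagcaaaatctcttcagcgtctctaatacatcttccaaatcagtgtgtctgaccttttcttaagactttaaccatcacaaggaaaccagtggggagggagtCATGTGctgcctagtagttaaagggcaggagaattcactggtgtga
Dct: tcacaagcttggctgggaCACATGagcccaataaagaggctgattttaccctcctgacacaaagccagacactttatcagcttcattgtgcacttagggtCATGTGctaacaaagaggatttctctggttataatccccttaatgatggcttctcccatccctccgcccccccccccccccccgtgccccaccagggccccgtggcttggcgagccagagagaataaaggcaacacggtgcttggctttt
The motif begins 21 bases before the gene start in Tyr, 46 bases before it in Tyrp1 and 150 bases before it in Dct, which has a further copy on the opposite strand. The search covered CATGTG and CACGTG on both strands in windows of 250 bases before to 50 after each start. CATGTG was in 4 of the 5 windows of the 5 melanin genes found in the table, and in 14.15% of all 32851 windows. CACGTG was in 0 of those 5 windows and in 7.15% of all windows. Over the 47 windows of all 4 melanocyte lists the share was 19.15%. The table holds 5 of the 8 melanin genes, and a match describes the letters only, not binding.

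**Figure D2:**
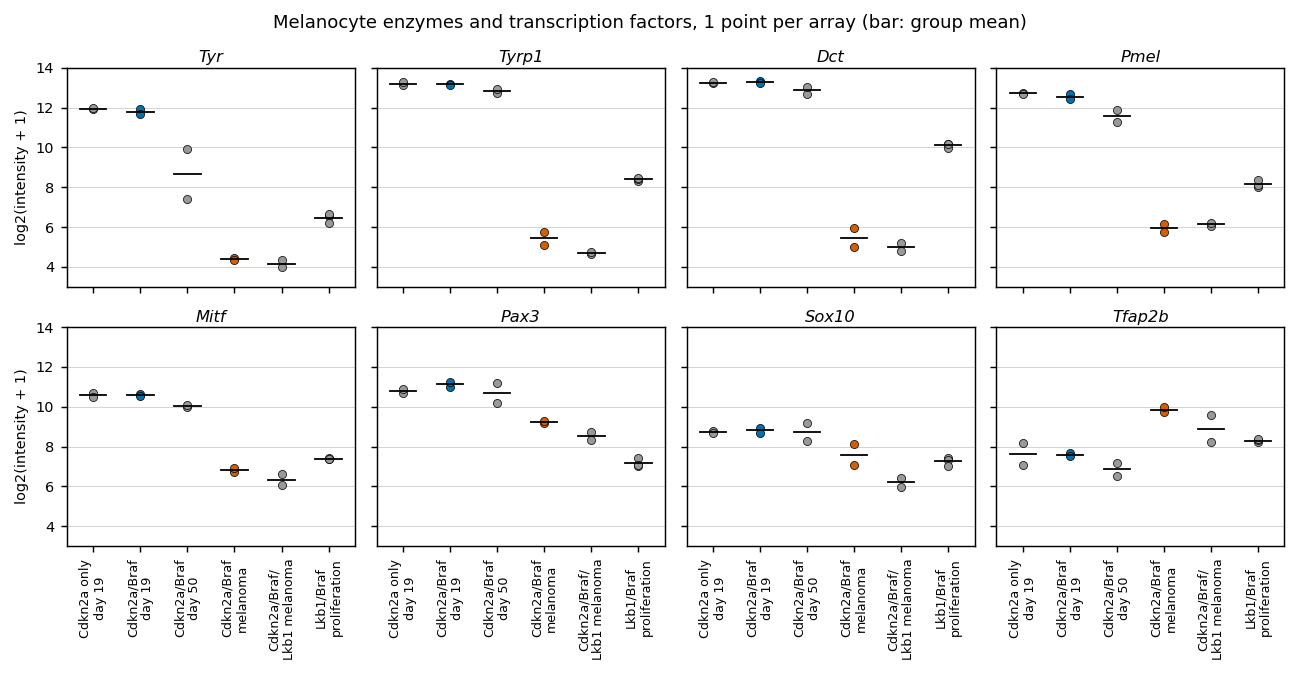
Level of 4 melanin genes (top row) and 4 melanocyte transcription factors (bottom row) on each of the 13 arrays, as log2(intensity + 1), with bars at group means. Day 19 Cdkn2a/Braf cells are blue, Cdkn2a/Braf melanomas orange and the other groups grey. Tyr lies between 11.66 and 11.92 in the blue samples and between 4.34 and 4.45 in the orange ones, while Pax3 and Sox10 differ much less.

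Among the 9 melanocyte transcription factors the differences were smaller and did not all run the same way, with 5 lower, 1 higher and a median of -1.23. Mitf, the regulator of pigment genes, was at 10.61 and 10.53 in the day 19 cells and at 6.74 and 6.94 in melanoma, a difference of -3.73 (SE 0.17, limma adjusted p = 1.14e-06). A further Mitf probe set gave -2.90. Irf4, a pigmentation factor that acts with MITF, differed by -3.68 (SE 0.39) and Lef1, a nuclear partner of beta-catenin, by -3.34 (SE 0.36). Pax3 was at 10.98 and 11.26 against 9.17 and 9.26, lower by a smaller step of -1.91 (SE 0.29, limma adjusted p = 0.00164). Sox10, the crest factor upstream of Mitf, was at 8.94 and 8.70 in the sorted cells and at 7.05 and 8.13 in the melanomas. The groups did not overlap for Sox10, but its difference of -1.23 was not called (limma adjusted p = 0.0511), and without melanoma array 2 it was -1.77 and passed (limma adjusted p = 0.013). Tfap2a differed by -1.19 (SE 0.24) and was not called without day 19 array 1 (limma adjusted p = 0.0568) or melanoma array 2 (limma adjusted p = 0.0588). Its relative Tfap2b went the other way, from 7.68 and 7.50 to 9.71 and 9.97, a rise of 2.25 (SE 0.44, limma adjusted p = 0.00666). That call was just lost without day 19 array 2 (2.16, limma adjusted p = 0.05004) or melanoma array 2 (2.12, limma adjusted p = 0.05003). Tbx2 (0.07) and Mef2c (-0.12) did not pass the test.

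Receptors and transporters of the melanocyte followed the melanin genes, with 9 of 10 lower and a median of -4.36, of which 8 calls held without any 1 array. Kit, the receptor for stem cell factor, was at 11.56 and 11.69 at day 19 and at 6.79 and 8.07 in melanoma (-4.20, SE 0.47, limma adjusted p = 0.000216). Ednrb was at 12.44 and 12.39 against 7.50 and 7.29 (-5.02, SE 0.14), and Mc1r, the melanocortin receptor, at 10.70 and 10.61 against 6.06 and 6.20 (-4.52, SE 0.22). Neither melanoma reached the sorted samples for any of these receptors. Summed mast cell intensity was 417 and 412 in the day 19 cells against 1508 and 4765 on melanoma arrays 1 and 2. The part of mast cells in the Kit values was not tested. The melanosomal transporter Slc45a2 differed by -6.06 and the endolysosomal channel Mcoln3 by -6.52. The pore of the acidic organelles Tpcn2 did not pass the test (0.08). Melanosome trafficking genes were mixed, with 11 of 17 lower and a median of -1.07, and 7 lower without day 19 array 1. The melanosome GTPases Rab38 (-4.93, SE 0.30) and Rab27a (-4.76, SE 0.23) and the Rab27a partners Mlph (-2.67) and Myo5a (-2.22) were lower. Hps3 and Dtnbp1 of the same list were lower too. With any 1 array left out, Hps3 differed by -1.597 to -1.503 and Dtnbp1 by -1.141 to -0.9971. The other 6 of the 17 were not called, among them the subunits Hps1 (-0.02) and Hps6 (-0.09). Over all 44 genes of the 4 melanocyte lists, 33 were lower and 1 was higher.

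Outside the melanocyte lists, 6 genes completed the 15 largest decreases, and all 6 kept their calls under each of the 16 alternatives. Sytl2, a Rab27 effector, differed by -5.22 (SE 0.26) and Plxnc1, a semaphorin receptor, by -5.07 (SE 0.45). Npy, the neuropeptide, was at 11.65 and 11.58 in the sorted cells and at 6.57 and 6.59 in the melanomas (-5.04, SE 0.27, limma adjusted p = 2.89e-06). Alx1, a homeobox factor of craniofacial crest, was at 10.32 and 10.02 against 5.09 and 5.19 (-5.02, SE 0.22). The glycosyltransferase B3galt5 (-5.30) and the neuronal membrane protein Gpm6a (-5.18) complete the set. Npy, Alx1 and B3galt5 were also far below the day 19 level in the growth-arrested day 50 cells, at 7.02 ± 0.07, 6.86 ± 0.05 and 5.10 ± 0.41 (SD, n = 2).

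The growth factor receptors were split, with 10 of 17 receptors and ligands higher, 2 lower and a median of 1.32. Over all genes 7.17% were called higher and 5.46% lower. On the receptor side, Mertk, a kinase of the TAM family, was at 5.60 and 4.92 in the day 19 cells and at 8.97 and 9.64 in melanoma (4.05, SE 0.31, limma adjusted p = 2.53e-05). Axl, of the same family, was at 6.63 and 7.11 against 9.28 and 9.30 (2.42, SE 0.18, limma adjusted p = 1.87e-05). Fgfr1, a fibroblast growth factor receptor, was at 6.86 and 7.21 against 10.06 and 9.58 (2.78, SE 0.28, limma adjusted p = 0.000107). For all 3 kinases both melanomas lay above both sorted samples, and the calls held without any 1 array. In the same arrays 12 of 18 macrophage markers (median 2.13) and 18 of 21 fibroblast markers (median 2.58) were higher, and their part in the kinase values was not tested. The third TAM kinase, Tyro3, did not pass the test (0.18). Egfr, the EGF receptor, depended on the melanoma array: its difference was 2.33 without melanoma array 1 and 1.38 without melanoma array 2. Erbb3, the neuregulin receptor, was lower, at 9.51 and 9.87 against 6.15 and 7.88 (-2.67, SE 0.42, limma adjusted p = 0.002). Met was at 11.44 and 11.26 against 9.33 and 7.57, a difference of -2.90 (SE 0.71, limma adjusted p = 0.0234). That call rested on 3 of the arrays: it was not called without day 19 array 1 (-2.81, limma adjusted p = 0.127), day 19 array 2 (-2.99, limma adjusted p = 0.0946) or melanoma array 2 (-2.02, limma adjusted p = 0.179).

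The ligands of Kit and Met were higher in the melanomas, where those receptors were lower. Kitl, the ligand of Kit, was at 5.35 and 4.45 in the day 19 cells and at 8.58 and 8.78 in the melanomas (3.78, SE 0.58, limma adjusted p = 0.00166). Hgf, the ligand of Met, was at 4.84 and 4.92 against 6.91 and 6.42 (1.78, SE 0.23, limma adjusted p = 0.000565). Both ligands were dim in the sorted cells, so their differences are understated. Pdgfc, a platelet-derived growth factor, differed by 3.25 (SE 0.32), and Ereg, a ligand of the EGF receptor, by 1.80 (SE 0.22). Nrg1, a ligand of Erbb3, did not pass the test (0.74). Fibroblasts are a known source of several of these ligands, and the summed intensity of the 21 fibroblast markers was 2181 and 2449 in the sorted cells against 16510 and 15670 in the melanomas. The part of that shift in the ligand values was not tested.

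**Figure D3:**
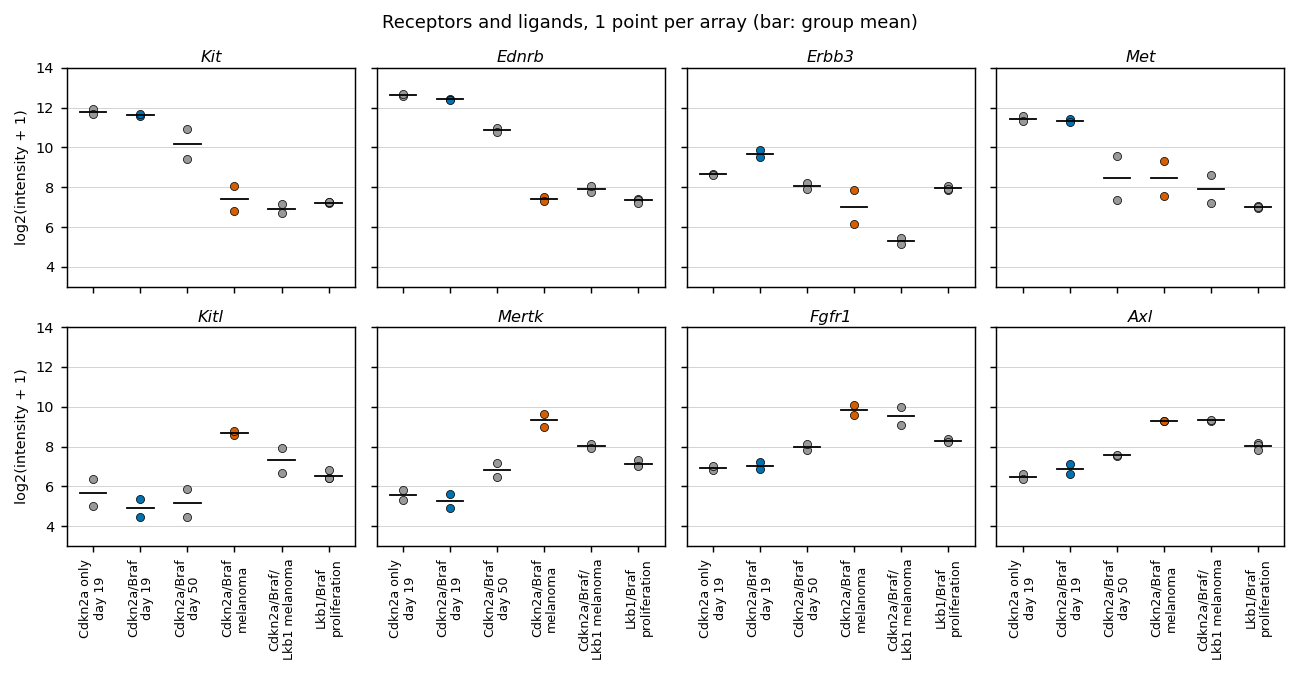
Level of 4 receptors of melanocytes (top row: Kit, Ednrb, Erbb3, Met) and of 1 ligand and 3 receptors that were higher in melanoma (bottom row: Kitl, Mertk, Fgfr1, Axl) on each of the 13 arrays, as log2(intensity + 1), with bars at group means. Colours are those of the plot of melanin genes. Ednrb falls from 12.44 and 12.39 in the day 19 cells to 7.50 and 7.29 in the melanomas, and Axl goes from 6.63 and 7.11 to 9.28 and 9.30.

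Genes of the neural crest and of neurons split into 7 that were higher, 6 that were lower and 8 that were not called, with a list median of -0.03 that turned to 0.06 under quantile normalization. Sox2, a stem cell and neural progenitor factor, was at 5.32 and 5.46 in the day 19 cells and at 7.88 and 8.73 in melanoma (2.91, SE 0.30, limma adjusted p = 0.000128). Nes, the progenitor intermediate filament, was at 5.65 and 5.91 against 8.52 and 9.94 (3.45, SE 0.37, limma adjusted p = 0.000177). Aqp1, a water channel found in early crest derivatives, was at 6.03 and 6.36 against 10.93 and 10.50 (4.53, SE 0.51, limma adjusted p = 0.000243). All 7 increases held without any 1 array, and they also include the adhesion molecule Chl1 (3.12), the growth cone protein Gap43 (3.21), the glial factor receptor Gfra2 (2.19) and the crest factor Sox9 (1.23). Among the decreases, L1cam, a neural adhesion molecule, differed by -1.81 (SE 0.22) and the SOX factor Sox5 by -1.14 (SE 0.19). Without melanoma array 1 the count of lower genes was 3 in place of 6. The crest markers Ngfr (-0.14) and Foxd3 (-0.49) did not pass the test. On the same arrays 11 of 20 endothelial, 6 of 11 pericyte, 18 of 21 fibroblast and 0 of 11 Schwann cell markers were higher, beside 7.17% of all genes. The part of these cell types in the increases was not tested.

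P-cadherin was lower in the tissue, whereas N-cadherin and several mesenchymal and TGF-beta genes were higher. Of 23 genes of this list 12 were higher and 1 lower, with a median of 0.81, and 8 of the 12 increases held without any 1 array. Cdh3, P-cadherin, was at 9.46 and 9.28 in the sorted cells and at 5.47 and 5.60 in the melanomas (-3.84, SE 0.17, limma adjusted p = 1.14e-06). Cdh2, N-cadherin, was at 6.74 and 6.72 against 8.76 and 9.18 (2.24, SE 0.36, limma adjusted p = 0.00211), and Cdh11, a mesenchymal cadherin, at 6.69 and 7.39 against 11.39 and 11.50 (4.41, SE 0.33, limma adjusted p = 1.93e-05). The melanoma arrays were thus below the sorted cells for P-cadherin and above them for the other two. E-cadherin, Cdh1, was at 8.24 and 7.88 against 6.28 and 7.74, a difference of -1.05 that was not called (limma adjusted p = 0.253). It was -0.32 without melanoma array 1 and -1.78 without melanoma array 2. Summed hair marker intensity was 2904 and 2429 at day 19 against 924 and 905 in melanoma, and summed keratinocyte intensity 4750 and 4097 against 1874 and 12880. The part of these cells in the Cdh3 and Cdh1 values was not tested. Twist1, a factor of epithelial-mesenchymal transition, was at 5.91 and 6.16 against 9.11 and 9.05 (3.05, SE 0.22), and Zeb1 differed by 1.36 (SE 0.24). Snai2 (0.05) and Zeb2 (-0.12) did not pass the test. The counts of this list stand beside 7.17% higher and 5.46% lower over all genes. Fibronectin, Fn1, was at 7.59 and 9.40 in the day 19 cells and at 12.38 and 12.42 in melanoma (3.91, SE 0.50), Tgfbi, a matrix protein induced by TGF-beta, differed by 2.99 (SE 0.20) and the ligand Tgfb2 by 2.28 (SE 0.41).

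Matrix proteases and their inhibitors were 8 of 18 higher and 0 lower, with a median of 1.14, and 5 were higher without day 19 array 1. Timp3, a tissue inhibitor of metalloproteinases, was at 7.64 and 7.70 against 11.68 and 11.89 (4.12, SE 0.58). Mmp3, stromelysin, was at 5.50 and 6.21 against 10.75 and 8.63 (3.83, SE 0.57), with melanoma array 1 the higher. Plau, urokinase, was likewise higher on melanoma array 1, at 9.44 and 7.77 against 5.41 and 5.78 (3.01, SE 0.51). Lox, a collagen crosslinker, differed by 2.72 (SE 0.27). Mmp2 (0.95) and Mmp14 (0.17) did not pass the test. Over all genes 7.17% were called higher and 5.46% lower. Fibroblasts make many of these matrix and mesenchymal proteins too, and the fibroblast marker sums given with the ligands stand beside every one of these values, their part not being tested.

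**Figure D4:**
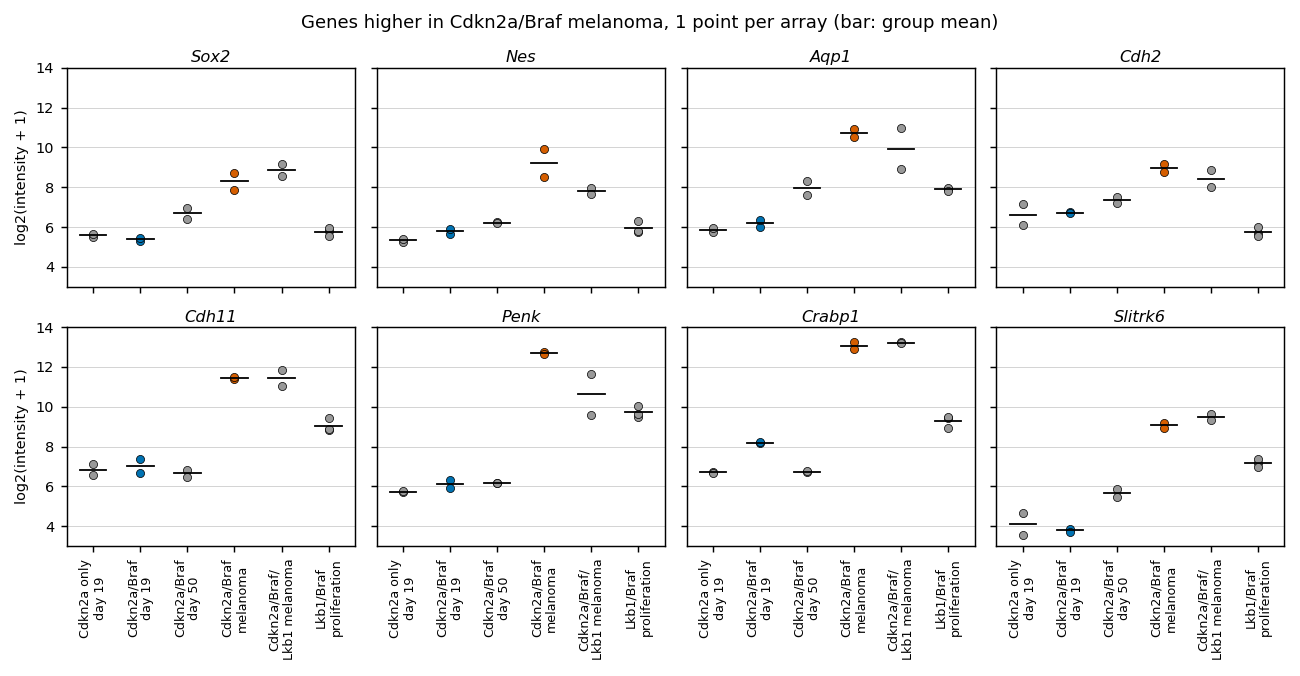
Level of 8 genes that were higher in Cdkn2a/Braf melanoma than in day 19 melanocytes, on each of the 13 arrays, as log2(intensity + 1), with bars at group means. Colours are those of the plot of melanin genes. The Lkb1/Braf proliferations are tissue in which several marker sums differ from those of the melanomas. In them Sox2, Nes and Cdh2 average 5.78, 5.95 and 5.75, against 7.88 to 8.73, 8.52 to 9.94 and 8.76 to 9.18 in the Cdkn2a/Braf melanomas.

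The 15 largest increases outside the markers of other cells included secreted, matrix and neuronal proteins, and none of the 15 calls was lost under the 16 alternatives. Being outside the marker lists does not place a gene in melanoma cells: the summed fibroblast intensity went from 2181 and 2449 to 16510 and 15670 in the same arrays and the macrophage sum from 908 and 2758 to 8335 and 7772, and their part in these values was not tested. Penk, the precursor of enkephalin peptides, was at 6.33 and 5.93 in the sorted cells and at 12.76 and 12.67 in the melanomas (6.58, SE 0.50, limma adjusted p = 2.24e-05). Crabp1, a binding protein for retinoic acid, was at 8.16 and 8.22 against 13.25 and 12.89 (4.88, SE 0.19, limma adjusted p = 4.21e-07). Slitrk6, a neuronal transmembrane protein, was at 3.87 and 3.70 against 9.20 and 8.93 (5.27, SE 0.31). The 2 melanomas lay within a small range of each other for these genes. Tac1, the precursor of substance P, differed by 4.95 (SE 0.67), but its melanoma arrays were far apart, at 9.77 and 6.85. The matrix proteins Efemp1 (6.22, SE 0.52) and Aspn (5.48, SE 0.43), the integrin-like Itgbl1 (5.49), the ferroxidase Cp (5.58) and the complement inhibitor Serping1 (5.03) were also in the set. Cped1 (5.18), the phosphodiesterase Pde3b (4.96), Ms4a6b (4.95), Bicc1, an RNA-binding protein (4.86), and Aspa, an aspartoacylase (4.80), complete it together with Igf1. A further Bicc1 probe set gave 2.46.

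Igf1 and several IGF-binding proteins were higher in the melanomas, in a list of 25 PI3K, AKT and IGF genes of which 5 were higher, 2 lower and the median 0.12. Over all genes 7.17% were called higher and 5.46% lower. Igf1, insulin-like growth factor, was at 5.27 and 5.38 in the day 19 cells and at 10.11 and 10.36 in melanoma (4.91, SE 0.50, limma adjusted p = 0.000128). Its binding proteins Igfbp4 (3.46, SE 0.20), Igfbp3 (3.11, SE 0.46) and Igfbp6 (2.98, SE 0.35) were higher too, and all 5 increases held without any 1 array. Igf2 (0.89), Igfbp2 (0.17) and Igfbp5 (0.42) did not pass the test. The fibroblast marker sums given with the ligands were higher in the same arrays, and their part in the IGF values was not tested. Inpp4b, a phosphatase of PI3K signalling, was at 9.20 and 9.16 against 7.47 and 7.23 (-1.83, SE 0.25). It was the decrease that held without any 1 array. The receptor Igf1r (0.38), Akt1 (-0.48) and Akt2 (0.00) did not pass the test.

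Over all genes 7.17% were called higher and 5.46% lower. ERK output genes gave no common direction, with 4 of 19 higher, 3 lower and a median of -0.08. Without day 19 array 1 the counts were 2 higher and 1 lower, without melanoma array 2 they were 2 and 4, and 1 was lower without day 19 array 2 or melanoma array 1. Of 11 RAS, RAF, MEK and ERK genes 1 was higher and 1 lower, neither of them with any array left out. Ccnd1, cyclin D1, was at 8.96 and 9.38 in the day 19 cells and at 11.19 and 11.06 in the melanomas (1.96, SE 0.18, limma adjusted p = 6.8e-05). Epha2, an ephrin receptor, differed by 1.19 (SE 0.20) and Phlda1 by -1.39 (SE 0.19), and these 3 calls held without any 1 array. The ERK phosphatase Dusp6 was at 9.61 and 9.66 against 7.96 and 8.54, a difference of -1.38 (SE 0.30, limma adjusted p = 0.0125). It passed only with all 4 arrays or without melanoma array 2 (without melanoma array 1 it was -1.09, limma adjusted p = 0.101). Etv5 (-0.65) and Myc (-0.58) did not pass the test.

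Mitosis genes differed between the 2 melanomas. The list counts of mitosis and replication genes stand beside 7.17% higher and 5.46% lower over all genes. Of 31 mitosis genes 1 was called higher, Prc1, a spindle protein, and the list median was 0.66, but without melanoma array 2 the count was 16. Without any 1 of the other 3 arrays the count was 0 and Prc1 was not called (limma adjusted p from 0.170 to 0.224). Top2a, a topoisomerase of dividing cells, was at 8.22 and 7.71 in the sorted cells and at 10.19 and 8.57 in the melanomas. Its difference was 1.42 on this probe set and -0.05 on a further one. Mki67, the proliferation antigen, was at 6.64 and 6.58 against 7.98 and 6.62. For both genes melanoma array 1 stood above the other 3 arrays, and over the list melanoma array 1 exceeded array 2 by a median of 1.35. Of 31 DNA replication genes 1 was higher and 1 lower, with a median of 0.02 that turned to -0.08 under median centring, and 0 were called without either day 19 array. Pcna, the sliding clamp, was at 11.76 and 11.47 against 10.61 and 9.99 and was not called (-1.31, limma adjusted p = 0.0884). A further Pcna probe set gave -0.24. As a description of the 27 mitosis promoter windows in the table, CCAAT and TTTGAA were each found, on either strand, in 70.37% of them, against 37.41% and 17.89% of all windows.

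Some CDK inhibitors and arrest-linked genes were higher in the tumour tissue, 6 of 17 with 0 lower, although the list median was -0.12. Those counts stand beside 7.17% higher and 5.46% lower over all genes. Of the 6 calls 5 held without any 1 array. Cdkn2b, the p15 inhibitor and neighbour of Cdkn2a, was at 7.27 and 7.42 in the day 19 cells and at 8.97 and 8.82 in melanoma (1.55, SE 0.19, limma adjusted p = 0.000459). Cdkn2c, the p18 inhibitor, was at 7.12 and 6.86 against 8.89 and 8.61 (1.76, SE 0.23). Hmga2, a chromatin protein, was at 7.30 and 7.60 against 9.24 and 9.10 (1.72, SE 0.29). The stress gene Gadd45a differed by 1.21 (SE 0.21), and Igfbp7, a secreted protein linked to arrest, by 4.0 (SE 0.43). Fibroblast marker sums, given with the ligands, and macrophage marker sums were higher in the same arrays. The part of these cells in any of the increases of this list, Igfbp7 included, was not tested. The inhibitors Cdkn2d (-1.10) and Cdkn1b (-0.13, with -0.87 for a further probe set) did not pass the test. Cdkn2a itself was at 6.27 and 6.39 against 6.52 and 6.46 and was not called (0.16, limma adjusted p = 0.683).

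Several amino acid transporters were lower in the melanomas. The list counts that follow stand beside 5.46% lower and 7.17% higher over all genes. Of 27 genes of ATF4 and amino acid supply 12 were lower and 2 higher, with a median of -0.49, and 7 were lower without day 19 array 2 or without melanoma array 2. Slc7a5, which carries large neutral amino acids, was at 12.24 and 11.99 in the day 19 cells and at 8.66 and 8.22 in the melanomas (-3.68, SE 0.22, limma adjusted p = 5.06e-06). Its partner chain Slc3a2 was at 11.63 and 11.70 against 9.42 and 9.60 (-2.16, SE 0.25), and Slc7a8, a related transporter, at 11.57 and 11.48 against 6.23 and 7.18 (-4.82, SE 0.43). Each of these transporters was lower in both melanomas than in both sorted samples. The transporters Slc1a4 (-0.49), Slc38a2 (-0.44) and Slc1a5 (0.31) did not pass the test. Asns, asparagine synthetase, differed by -2.60 (SE 0.27) and Aldh1l2, a mitochondrial folate enzyme, by -2.19 (SE 0.17). The stress factor Nupr1 went the other way, from 7.12 and 7.27 to 11.47 and 11.09 (4.08, SE 0.34), as did the lipoprotein receptor Vldlr (1.98, SE 0.23). Psat1 (-0.32) and Phgdh (0.07) of serine synthesis did not pass the test.

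Some lysosomal and mTORC1 genes were lower. Of 27 lysosomal and TFEB genes 9 were lower and 0 higher, with a median of -0.51, and without day 19 array 1 the count was 3. The proton pump subunits Atp6v0d2, at 10.68 and 9.81 in the sorted cells and 5.47 and 5.80 in the melanomas (-4.61, SE 0.30), and Atp6v1b2, at 11.32 and 11.42 against 8.29 and 8.44 (-3.01, SE 0.20), led the list. Npc1, which exports cholesterol from lysosomes, differed by -2.10 (SE 0.24). These 3 calls held without any 1 array, while the general lysosomal membrane proteins Lamp1 (-0.26) and Lamp2 (-0.22) did not pass the test. CACGTG was in 8 of the 28 lysosomal promoter windows, 28.57%, against 7.15% of all windows. CATGTG was in 3 of them, 10.71%, against 14.15% of all windows. In the list of 21 mTORC1 and TSC genes 3 were lower and 0 higher, beside 5.46% lower over all genes. Rragd, a Rag GTPase of the lysosomal surface, was at 8.13 and 8.44 against 5.68 and 5.86 (-2.51, SE 0.39), and Fnip2, a folliculin partner, differed by -1.65 (SE 0.19). Mtor (-0.25), Rptor (-0.03), Tsc1 (-0.42) and Tsc2 (-0.36) did not pass the test. Of 20 LKB1 and AMPK genes 2 were lower and 0 higher, beside 5.46% lower and 7.17% higher over all genes. Neither of those 2 calls, the kinases Sik2 (-1.07) and Mark2 (-0.66), held in all 4 fits that left out 1 array. Stk11, which encodes LKB1, was at 8.86 and 9.27 against 8.90 and 8.63 (-0.30, limma adjusted p = 0.774).

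Sterol and fatty acid synthesis genes were lower in 14 of 23 cases, with 0 higher and a median of -0.98, and 8 were lower without day 19 array 1. Cyp51, lanosterol demethylase, was at 9.45 and 9.25 in the day 19 cells and at 7.34 and 7.63 in the melanomas (-1.86, SE 0.21, limma adjusted p = 0.000227). Hmgcs1, at the head of the mevalonate pathway, was at 10.20 and 9.66 against 8.17 and 8.39 (-1.65, SE 0.23). Nsdhl differed by -1.48 (SE 0.19), Sqle, squalene epoxidase, by -1.17 (SE 0.17) and Srebf2, the factor that drives the pathway, by -1.06 (SE 0.13). For Cyp51 and Hmgcs1 the groups were separated by more than the gap between replicates. The fatty acid genes were less uniform: Acaca was lower (-1.25, SE 0.22), whereas Fasn (-0.13) and Scd1 (0.29) did not pass the test. The counts of the sterol, glycolysis and oxidative phosphorylation lists stand beside 7.17% higher and 5.46% lower over all genes. In glycolysis and hypoxia 5 of 28 were higher and 2 lower, with a median of 0.03 that turned to -0.08 under median centring, with 2 higher without day 19 array 2 or melanoma array 2 and 3 without day 19 array 1. Hk2, hexokinase, was at 8.43 and 8.25 against 5.70 and 6.13 (-2.43, SE 0.25), and P4ha2, a collagen prolyl hydroxylase, differed by 1.35 (SE 0.20) and the glucose transporter Slc2a3 by 0.82 (SE 0.13). Of 29 oxidative phosphorylation genes 6 were lower and 0 higher, but the count was 0 without day 19 array 2 or without melanoma array 2 and 1 without either of the other arrays.

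WNT pathway genes split evenly, with 4 of 21 higher and 4 lower, beside 7.17% higher and 5.46% lower over all genes. Dkk2, a secreted WNT inhibitor, was at 6.52 and 8.0 in the sorted cells and at 10.95 and 9.86 in melanoma (3.15, SE 0.49), and Sfrp1, a WNT-binding protein, differed by 2.08 (SE 0.20). Nkd1, a feedback inhibitor of WNT signalling, was at 10.24 and 9.87 against 7.29 and 7.06 (-2.88, SE 0.26). Ctnnb1, beta-catenin, was at 10.90 and 11.12 against 10.14 and 9.66 (-1.11, SE 0.17), and Znrf3, a receptor-removing ligase, differed by -1.03 (SE 0.15). The feedback target Axin2 (-0.62) did not pass the test. Fibroblast marker sums, given with the ligands, were higher in the melanomas, and their part in the Dkk2 and Sfrp1 values was not tested.

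Secreted inflammatory factors were 8 of 23 higher and 0 lower, with a median of 0.69, and 5 were higher without day 19 array 1. Ccl8, a monocyte chemokine, was at 4.61 and 4.68 against 8.38 and 8.46 (3.77, SE 0.30, limma adjusted p = 3.03e-05). Ptgs2, the inducible prostaglandin synthase, was at 4.85 and 4.99 against 7.50 and 7.49 (2.58, SE 0.27). Cxcl12 differed by 2.50 (SE 0.23) and Csf1, the macrophage growth factor, by 1.63 (SE 0.25). Over all genes 7.17% were called higher and 5.46% lower. Interleukins of the arrest-associated secretion, Il6 (-0.03) and Il1a (0.27), did not pass the test. The macrophage marker sum, given next, was higher in the same samples, and its part in these values was not tested.

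Markers of other cell types were judged apart from the genes above. Together their 15 lists hold 204 measured genes, of which 60 were higher and 12 lower, beside 7.17% higher and 5.46% lower over all genes. They made up 4.20% of all higher calls, but they are only 204 of the 19937 genes tested. Short marker lists do not measure how many of the increases come from other cells. Fibroblast markers were 18 of 21 higher with a median of 2.58, of which 14 held without any 1 array. Pdgfra was at 6.13 and 6.65 in the sorted cells and at 11.41 and 10.41 in the melanomas (4.52, SE 0.38), Dcn, decorin, at 8.34 and 7.51 against 11.48 and 11.84 (3.73, SE 0.30), and Fap, a marker of activated fibroblasts, at 3.92 and 4.17 against 8.57 and 8.29 (4.39, SE 0.53). The collagens were less far apart, and Col3a1 differed by 1.92 (SE 0.22). Macrophage markers were 12 of 18 higher with a median of 2.13, and 11 held without any 1 array. Mrc1, the mannose receptor, was at 4.59 and 6.09 against 10.28 and 10.13 (4.87, SE 0.55) and Msr1, a scavenger receptor, at 4.39 and 4.35 against 8.22 and 7.78 (3.63, SE 0.18). Summed macrophage intensity was 908 and 2758 in the day 19 cells, so that replicate 2 held more of it, and 8335 and 7772 in the melanomas.

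Vessel and mast cell markers were higher as well, and lymphocyte markers were near the day 19 level. Endothelial markers were 11 of 20 higher with a median of 1.02, and 7, 6 and 6 were higher without day 19 array 1, day 19 array 2 and melanoma array 1. Emcn, endomucin, was at 4.82 and 5.23 against 8.49 and 8.19 (3.32, SE 0.50), Pecam1 differed by 1.78 (SE 0.23), and Cldn5, an endothelial junction protein, did not pass the test (0.06). Pericyte markers were 6 of 11 higher, among them Rgs5 (2.66, SE 0.18). Mast cell markers were 5 of 9 higher, and 8 were higher without melanoma array 1. The mast cell protease Mcpt4 was at 4.56 and 4.71 against 8.66 and 10.30 (4.85, SE 0.53), and the summed mast cell intensity was 417 and 412 in the sorted cells against 1508 and 4765 in the melanomas. Of 17 T and NK cell markers 2 were higher (0 without day 19 array 1 or melanoma array 2, and 1 without either of the others), and of 9 B and plasma cell markers 0 were higher or lower. The summed T and NK cell intensity was 809 and 918 in the day 19 cells and 933 and 936 in the melanomas. Dendritic cell markers were 3 of 10 higher, neutrophil and adipocyte markers 1 of 11 each, and none of 5 erythrocyte or 13 skeletal muscle markers was called. These counts stand beside 7.17% higher over all genes.

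Epidermal and hair markers parted the arrays in other ways. Hair shaft and root sheath markers were 11 of 18 lower and 0 higher with a median of -1.45, and 6 were lower without day 19 array 1 and 7 without melanoma array 1. The hair keratin-associated gene Krtap6-2 was at 8.48 and 8.59 in the sorted cells and at 4.34 and 3.85 in the melanomas (-4.44, SE 0.21, limma adjusted p = 1.33e-06). Summed hair intensity was 2904 and 2429 in the sorted cells against 924 and 905, so the day 19 sort held more of these transcripts than the tumours, and their part in the differences was not tested. Keratinocyte markers differed between the melanomas: Krt14 was at 5.51 and 9.72 on melanoma arrays 1 and 2 and at 8.33 and 7.53 at day 19, and the summed intensity was 1874 and 12880 against 4750 and 4097. Of 20 keratinocyte markers 1 was higher, while without melanoma array 2 the count was 7 lower and without melanoma array 1 it was 5 higher. Skeletal muscle intensity stood out on melanoma array 1, at 4325, against 998 on array 2 and 1050 and 1035 at day 19. Among 11 Schwann cell genes 1 was lower, Fabp7, a fatty acid-binding protein that crest-derived cells also express, at 12.76 and 12.66 against 7.0 and 9.50 (-4.46, SE 0.61). The myelin gene Mbp (-0.19) did not pass the test. Over all genes 5.46% were called lower and 7.17% higher.

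**Figure D5:**
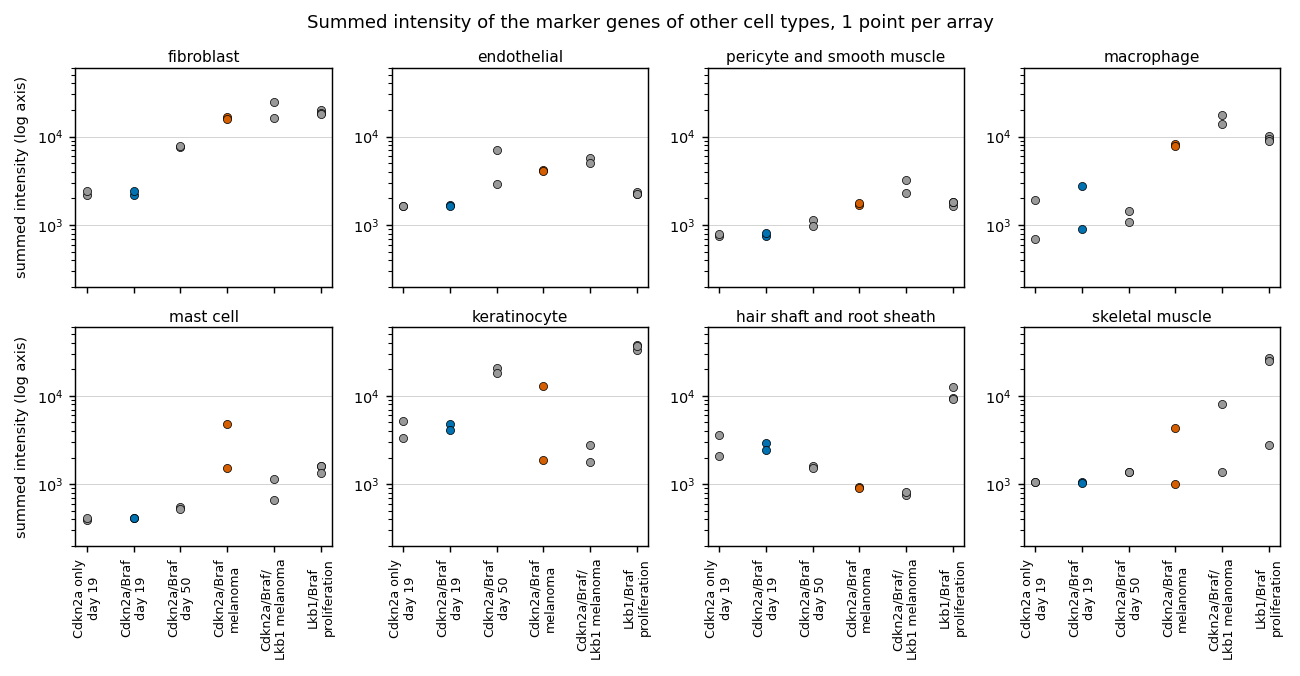
Summed intensity of the marker genes of 8 other cell types on each of the 13 arrays (log axis). Colours are those of the plot of melanin genes. Fibroblast sums are 16510 and 15670 in the orange melanoma samples against 2181 and 2449 in the blue day 19 samples, and keratinocyte sums of the 2 melanomas lie apart, at 1874 and 12880.

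Levels of these genes in the other groups are set beside the marker sums of those groups. The Lkb1/Braf proliferations are tissue too, with summed fibroblast intensities from 17810 to 19990, all above both Cdkn2a/Braf melanomas, and with Dcn at 12.37 ± 0.07 (SD, n = 3). Pericyte and smooth muscle sums were similar, from 1640 to 1812 against 1673 and 1772 in the Cdkn2a/Braf melanomas. Macrophage sums ran from 8909 to 10270 against 8335 and 7772. Several other marker sums of the proliferations were not like those of the Cdkn2a/Braf melanomas. Endothelial sums were lower, from 2221 to 2352 against 4168 and 4087. Keratinocyte sums were higher, from 33310 to 37590 against 1874 and 12880, as were adipocyte sums, from 9325 to 12560 against 1384 and 1726, and hair sums, from 9249 to 12590 against 924 and 905. The part of these cell types in the levels that follow was not tested. In these proliferations Sox2 averaged 5.78 ± 0.19, Nes 5.95 ± 0.31, Cdh2 5.75 ± 0.22, Tac1 3.45 ± 0.07, Hmga2 6.58 ± 0.46, Ptgs2 5.40 ± 0.16 and Ccnd1 9.04 ± 0.08 (SD, n = 3). Each of those means lay below both Cdkn2a/Braf melanoma arrays and nearer to the day 19 mean than to the melanoma mean. Penk (9.72 ± 0.30), Cdh11 (9.05 ± 0.33), Aspn (9.12 ± 0.09) and Igf1 (8.93 ± 0.08) were instead above the day 19 cells in the proliferations as well (SD, n = 3). In the sorted day 50 cells, whose fibroblast sums were 7555 and 7782, Lum was at 9.65 ± 0.14 and Dcn at 11.07 ± 0.52, whereas Penk (6.16 ± 0.03), Crabp1 (6.74 ± 0.05), Cdh11 (6.65 ± 0.23) and Twist1 (5.97 ± 0.28) stayed near or below the day 19 level (SD, n = 2). The Cdkn2a/Braf/Lkb1 melanomas held Sox2 at 8.86 ± 0.44, Crabp1 at 13.22 ± 0.01, Slitrk6 at 9.49 ± 0.23 and Ccnd1 at 11.32 ± 0.11 (SD, n = 2), each close to the Cdkn2a/Braf melanomas. These are levels set side by side, and differences between the tissues were not tested here.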

How the data were processed

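Amplified and labelled total RNA was hybridised to Affymetrix arrays, per the labels' protocols. Probe sets were summarised with RMA, per the submitters' processing notes, which give no version. The deposited values are linear intensities between 3.35 and 17698. RMA by itself yields log2 values, and the sources used here do not say how these became linear. They were analysed as log2(intensity + 1), on which dim genes differ by less than their true ratio. Precision is limited by how few arrays each group has.

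Of 34760 probe sets, 21640 name 1 gene in the platform table, 1321 name several and were left out, and 11799 are unlisted and unnamed here. Where several probe sets name a gene (954 genes) the brightest over all arrays was used, which gave 19937 genes. limma 3.58.1 in R 4.3.3 was fitted to all 13 arrays as 6 group means (7 residual and 3.08 prior degrees of freedom), with two-sided tests. The labels call the arrays of a group biological replicates, and 0 pairs of arrays held identical values throughout. The fit was tested on simulated data. Alternatives were other scalings, pseudocounts of 0 and 16, averaged probe sets, dim-gene filters, other variance models and leaving out each array. Tables and plots were made in Python 3.11.15 with matplotlib 3.10.9, pandas 2.3.3 and numpy 2.4.6.

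Genes named are the 15 that rose most and the 15 that fell most outside the markers of other cells, given a limma adjusted p under 0.05, a log2 change of 1 or more and groups that do not overlap. Members of the 45 lists (784 of 848 genes measured, 2 by an older symbol), Braf, Cdkn2a, Stk11 and sex-linked genes could also be named. The comparison and the lists were chosen with earlier results of these data known. Promoters come from RefSeq on GRCm38.p6, with 1 or more windows of a gene. Probe sets have no coordinates here, since no build is named for them.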

Additional observations from a re-analysis of the deposited data

How the results depend on the processing

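Of the 285 called genes that belong to a list or to the named set, 175 kept their call under all 16 alternatives, 110 lost it under at least 1 and 0 changed sign. Leaving out each array in turn gave from 825 to 1166 genes higher and from 552 to 668 lower, in place of 1430 and 1088. Between 53.3% and 61.6% of all calls were kept in these fits. Whether the other calls were lost because fewer arrays were fitted or because the arrays differ was not tested. Array weights raised the lower count to 1815 and the higher count to 1959, and the cause was not tested. The other alternatives gave from 1015 to 1440 higher and from 892 to 1542 lower. With the replicate number as a block 1194 were higher and 892 lower, but the numbers do not pair the samples: the correlation of the replicate differences between the groups was 0.00217 over genes, from 2 pairs. Zfp36, an RNA-binding protein not called with all arrays (-0.00), was called higher without melanoma array 1 (0.70) and lower without array 2 (-0.71), the cause of which was not tested. With 2 arrays a group and dim genes near background, small differences are not detectable, and a difference that misses the threshold is not shown to be absent.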

Other observations

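Most calls in the immune response, stress and translation lists were lost under at least 1 of the 4 fits that leave an array out. Over all genes 7.17% were called higher and 5.46% lower, together 12.6%. Of 20 interferon response genes 3 were higher and 1 lower, with a median of 0.42, and 1 was higher without day 19 array 2. The RNA sensor Ifih1 was at 5.80 and 5.62 in the day 19 cells and at 7.51 and 7.36 in the melanomas (1.73, SE 0.33, limma adjusted p = 0.00637), a call that was lost without day 19 array 2. The chemokine Cxcl10 was the lower gene (-1.92), a call lost whichever of the 4 arrays was left out. Of 11 MHC class I genes 1 was higher and 1 lower, neither of them with any array left out, and of 8 MHC class II genes 2 were higher, among them the invariant chain Cd74 at 4.91 and 7.37 against 9.47 and 9.47 (3.33, SE 0.88). The MHC class II count was 4 without day 19 array 2 and 0 without any 1 of the other arrays. Cd74 was not called without day 19 array 1 or without either melanoma array.

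Of 16 p53 genes 3 were higher and 0 lower, with a median of 0.00, and 1 or 0 were higher with any array left out. Of 16 ribosomal protein genes 1 was higher, Rpl22 (0.61), which was called without day 19 array 1 but not without any other array. Among 22 immediate early genes 1 was higher and 2 lower, but 10 were lower without melanoma array 2. Fos was at 8.36 and 8.38 in the sorted cells and at 5.76 and 8.18 in the melanomas. Nr4a3, a nuclear receptor of that list, was at 7.11 and 6.34 against 4.89 and 5.10 (-1.73, SE 0.27, limma adjusted p = 0.00184). Of 11 heat shock genes 1 was higher, Hspb1 (1.63), and 1 lower, Dnajb1 (-0.68). Neither was called without day 19 array 2 or melanoma array 1, and Hspb1 was not called without melanoma array 2.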
